A study of Homo sapiens with 52 samples.

Results

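MDA-MB-231 cells carrying the hairpin shNRP1#5 were compared directly with MDA-MB-231 cells carrying the hairpin shNRP1#3, a set of 6 of the 52 samples of the study, chosen by the hairpin and the cell line in the labels. MDA-MB-231 is an established human triple-negative breast cancer line of the claudin-low kind. Both groups of 3 samples expressed a short hairpin RNA (shRNA) against *NRP1* from the lentiviral vector pLKO.1, had been packaged in HEK293T cells and selected with puromycin for 3 days, and were harvested 48 hrs after seeding. The control group of 3 samples, shNT, carried a non-targeting shRNA in the same way, and all 9 samples therefore shared transduction and puromycin. Replicates were consecutive passages of transduced cells, so that the spread between them was not a spread between separate transductions. Where values of small interfering RNA (siRNA) are given, they came from MDA-MB-231 cells transfected with siNRP1#5, siNRP1#3 or the non-targeting siNT and harvested 72 hrs later, with 3 samples per group. The gene tests of the hairpins shared a model with these siRNA groups. Their p-values therefore also drew on the spread within the siRNA groups, and not on that between passages alone. siNRP1#5 had the sequence of shNRP1#5, whereas siNRP1#3 and shNRP1#3 differed in sequence and bound NRP1 at neighbouring positions. SUM159PT, another claudin-low line, carried the same hairpins in 3 samples per group.

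NRP1 (neuropilin-1) is a cell surface co-receptor that has no kinase of its own. It binds class 3 semaphorins together with plexins and binds VEGF together with VEGF receptors, and its short tail binds the adaptor GIPC1. Shorter transcripts encode soluble NRP1, which keeps the ligand-binding domains but lacks the membrane anchor. A hairpin is cut by Dicer into a short duplex of which the guide strand enters Argonaute. A guide that pairs along its whole length leads to cleavage of the target, and pairing of the seed alone, bases 2 to 8 of the guide, with the 3′ untranslated region (3′ UTR) of other mRNAs can lower them as microRNAs do.

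The binding sites are shown because the hairpins target different NRP1 transcripts. The sites were read from the GRCh38 reference at the positions that the sense sequences in the study's methods gave, both in coding exons on the minus strand. Capitals mark the bases that pair with the seed of the guide in the sites, and the seed itself in the guides, which were taken as the reverse complement of the site.
shNRP1#3 site: gctgtggatgacaTTAGTATt
shNRP1#3 guide: aAUACUAAugucauccacagc
shNRP1#5 site: cagccttgaatGCACTTAt
shNRP1#5 guide: aUAAGUGCauucaaggcug
The shNRP1#3 site lay at chr10:33185659-33185679 in exon 15 of NRP1-206 and was present in 4 of the 14 annotated NRP1 transcripts, which all encode transmembrane NRP1. The shNRP1#5 site lay at chr10:33263779-33263797 in exon 4 and was present in 9 of the 14 transcripts, the same 4 and 5 soluble ones. The cut ends of the guides in the cells were not measured.

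RNA of other cell lines was present in some of the samples and is given before any result. Among genes at no more than 0.5 CPM (counts scaled to library size) in the MDA-MB-231 control samples and at 20 CPM or more in every control sample of another line, 58 marked SUM159PT and 60 marked HS578T, another line of the study. The 58 SUM159PT genes summed to 121 CPM in shNRP1#3 replicate 3 and to 30.6 CPM in shNRP1#3 replicate 2, and to between 2.48 and 5.04 CPM in the other 7 shRNA samples. Likewise the 60 HS578T genes summed to 86.2 CPM in shNRP1#3 replicate 3 and 12.4 CPM in shNRP1#3 replicate 2, against 1.75 to 3.73 CPM elsewhere. No SUM159PT marker was at 0 in either of these 2 samples, whereas 21 to 32 of the 58 were at 0 in each other sample. The 58 and 60 genes were not required to be absent from the remaining line, and by their medians replicate 3 held 2.35% and 2.12%. From markers of 1 line alone, 8 for SUM159PT and 17 for HS578T, shNRP1#3 replicate 3 was estimated to hold 1.1% SUM159PT and 1.91% HS578T reads. Replicate 2 was estimated to hold 0.394% SUM159PT and 0% HS578T reads, with 11 of the 17 HS578T markers at 0. Among the siRNA samples, siNT replicate 3 was estimated to hold 0.383% HS578T reads, with none of the 17 markers at 0. The HS578T estimates were 0.106%, 0.061% and 0.0739% in siNRP1#3 replicates 1 to 3 and 0% in each siNRP1#5 sample.

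**Figure D1:**
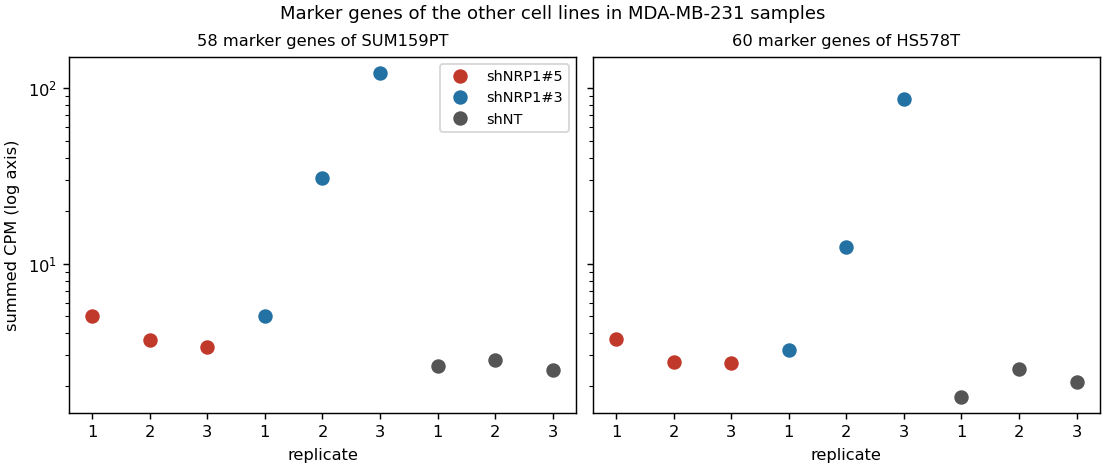
Summed CPM (log axis) of 58 SUM159PT and 60 HS578T marker genes in each MDA-MB-231 shRNA sample, one point per sample. shNRP1#3 replicate 3 (121 and 86.2 CPM) and replicate 2 (30.6 and 12.4 CPM) stand above the other 7 samples.

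The gene calls between the hairpins and the list counts made from them were therefore also computed without shNRP1#3 replicate 3, with shNRP1#3 replicates 2 and 3 left out, and with the estimated reads of the other lines subtracted. The NRP1 transcript values and the list counts against shNT were not computed with subtraction or with replicates 2 and 3 left out, and the seed matches were computed with subtraction alone. Total counts were 69517541, 45312047 and 56349450 in shNRP1#5 replicates 1 to 3 and 25851515, 56908088 and 48430182 in shNRP1#3, so that shNRP1#3 replicate 1, the one of its group without other-line RNA, was also the least deeply sequenced. Over the 9 shRNA samples the mesenchymal and claudin-low genes VIM (2670 to 3930 CPM), ZEB1 (33.2 to 47.6 CPM) and CD44 (797 to 1060 CPM) were present, and CDH1 (0.127 to 1.24 CPM) and the oestrogen receptor ESR1 (0.0183 to 0.155 CPM) were at or near 0. CLDN4, at 69.4 to 187 CPM, and ERBB2, at 72.8 to 124 CPM, were not near 0. Of the other genes taken as low in claudin-low cells, CLDN3 (3.48 to 10.4 CPM), CLDN7 (7.34 to 28.6 CPM) and EPCAM (13.3 to 21.3 CPM) were also detected. SNAI1 (5.08 to 12 CPM) and ITGA6 (287 to 381 CPM) were present, and the progesterone receptor PGR was at 0.274 to 0.637 CPM.

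NRP1, the targeted gene, was lowered by both hairpins. It was at 83.8, 101 and 100 CPM in shNRP1#5 replicates 1 to 3, at 67.9, 68.6 and 75.7 CPM in shNRP1#3 and at 209, 193 and 188 CPM in shNT. The 3 groups did not overlap, and the level of shNRP1#5 was between those of the other groups. Against shNT, the log2 fold change was −1.05 for shNRP1#5 (adjusted p = 9.78e-05) and −1.48 for shNRP1#3 (adjusted p = 1.83e-05), comparisons that share the shNT samples. Directly, NRP1 was higher in shNRP1#5 by 0.43 on the log2 scale (SE 0.146), with an adjusted p of 0.0565, just over the threshold of 0.05. Other settings placed the same difference on the other side of the threshold, among them subtraction of the other lines' reads (0.45, adjusted p = 0.0487). The gene's TPM (transcript abundance scaled to the library), which take transcript length into account, overlapped, at 37.8 ± 6.9 in shNRP1#5 and 34.2 ± 1.36 in shNRP1#3 (SD, n = 3).

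The transcripts behind the gene total differed in kind. Summed over the transmembrane transcripts, NRP1 was at 17.6, 21.6 and 20.4 TPM in shNRP1#5 and at 12.5, 12.2 and 14.5 TPM in shNRP1#3, which were 46.5% and 30.5% of the shNT mean. Summed over the soluble transcripts it was at 8.21, 9.06 and 12.1 TPM in shNRP1#5 and at 12.9, 14.7 and 14.1 TPM in shNRP1#3, or 45.6% and 64.7% of the shNT mean. Thus transmembrane transcripts were higher and soluble transcripts lower with shNRP1#5, with no overlap between the groups in either. The soluble share of both kinds together was 32.9% ± 3.99 in shNRP1#5, 51.6% ± 2.74 in shNRP1#3 and 33.5% ± 4 in shNT (SD, n = 3). NRP1-204, the most abundant soluble transcript, made up 23%, 16.5% and 24.1% of NRP1 in shNRP1#5 and 29.8%, 39.8% and 35.4% in shNRP1#3. For each of these differences the exact two-sided permutation test gave p = 0.1, the smallest that 3 samples against 3 allow, so the design could not reach the threshold. In the test across all 92506 transcripts, which called 489 (0.529%), no NRP1 transcript was called, and the smallest adjusted p was 0.189 (NRP1-206, log2 fold change 0.71).

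**Figure D2:**
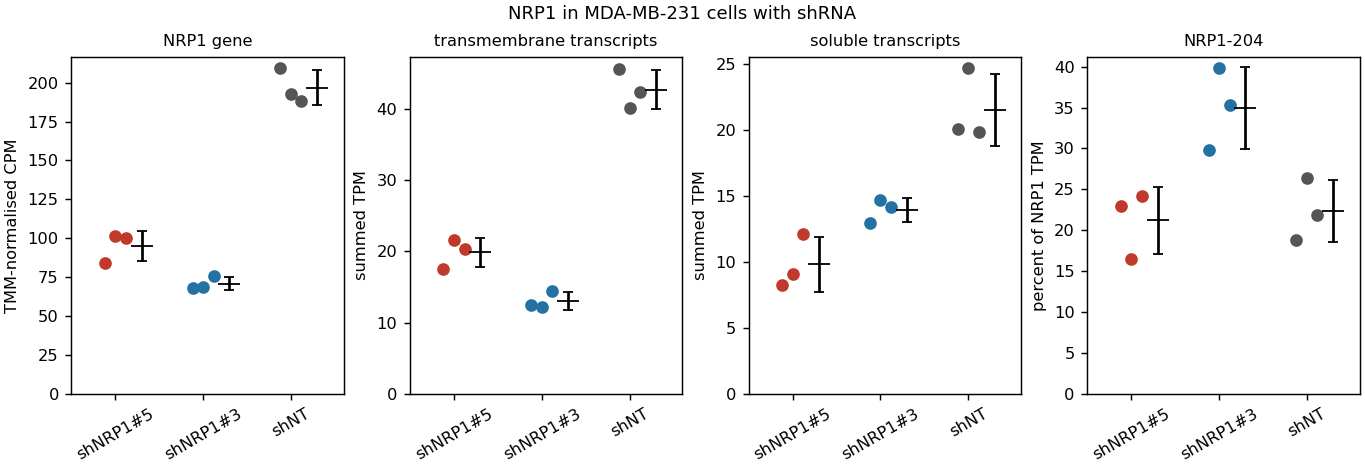
NRP1 in the 9 shRNA samples (points) with the mean ± SD of each group (bars, n = 3), from left to right as TMM-normalised CPM of the gene, summed TPM of transmembrane transcripts, summed TPM of soluble transcripts, and the percent of NRP1 TPM from NRP1-204. shNRP1#5 lies above shNRP1#3 in transmembrane and below it in soluble transcripts.

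The order of #5 and #3 was the other way round in the MDA-MB-231 siRNA pair and in SUM159PT with the hairpins. In the siRNA pair NRP1 was at 2.82 ± 0.794 CPM in siNRP1#5 and at 51.6 ± 4.47 CPM in siNRP1#3 (SD, n = 3), a log2 fold change of −4.18 (adjusted p = 1.03e-11). With the same hairpins in SUM159PT it was −0.99 (adjusted p = 0.0461), and the difference between the lines passed its own test (1.43, adjusted p = 0.00799).

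Across the genome, 2670 of 18800 tested genes (14.2%) differed between the hairpins at an adjusted p under 0.05. Of these, 1121 (5.96% of those tested) were higher and 1549 (8.24%) lower in shNRP1#5, and 245 and 606 of them differed at least 2-fold. The median over all tested genes was −0.00905 on the log2 scale. For comparison, shNRP1#3 differed from shNT in 686 genes (3.65%) and shNRP1#5 in 3899 genes (20.7%). Samples within a group correlated at 0.9816 to 0.9885 for shNRP1#3 and 0.9895 to 0.9919 for shNRP1#5 (Pearson's r of log CPM across genes, which are not independent), and at 0.9752 to 0.984 between the groups.

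These counts depended on which samples entered. With the other lines' reads subtracted, 1131 genes were higher and 1520 lower, and 1070 (95.5%) of the higher and 1460 (94.3%) of the lower genes remained. The 1460 included COL1A2, BGN and COL3A1, described below, which were high in shNRP1#3 replicate 3 alone and lost the call without it. The subtraction rested on estimated shares, and whether it removed all other-line reads was not tested. Without shNRP1#3 replicate 3 there were 622 higher and 1032 lower genes, and with replicates 2 and 3 left out, where shNRP1#3 was a lone sample assumed to vary like the other groups, 174 and 373. In 100 of the 1549 lower genes, of which 91 were at least 2-fold lower, an estimated 25% or more of the reads of shNRP1#3 replicate 3 came from the other lines, against 22 of the 1121 higher genes. Leaving out other single samples also moved the total by more than 1.5 times, to 1394 without shNRP1#3 replicate 1, 1526 without shNRP1#3 replicate 2, 1654 without shNRP1#3 replicate 3, 1205 without shNRP1#5 replicate 2 and 1226 without shNRP1#5 replicate 3.

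The 12 genes with the largest increases included the metalloproteases MMP1 and MMP3. MMP1, an interstitial collagenase, was at 1339, 902 and 1220.0 CPM in shNRP1#5 and at 112, 123 and 99.4 CPM in shNRP1#3, with 133, 181 and 134 CPM in shNT. MMP3 (stromelysin-1) was at 11.8, 5.75 and 6.24 CPM against 0.722, 0.523 and 0.966 CPM. In both, shNRP1#5 alone stood apart, and shNRP1#3 lay near shNT (log2 fold change of MMP1 −0.42, adjusted p = 0.271, and of MMP3 0.28, adjusted p = 0.793). Between the hairpins MMP1 differed by 3.37 (SE 0.211, adjusted p = 4.75e-08) and MMP3 by 3.43 (SE 0.386, adjusted p = 2.24e-05) on the log2 scale.

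ESM1, an endothelial proteoglycan induced by VEGF signalling, had the largest increase of the 12. It was at 1.81, 2.21 and 1.9 CPM in shNRP1#5 and at 0.108, 0.0817 and 0.116 CPM in shNRP1#3, a log2 difference of 4.26 (SE 0.501, adjusted p = 2.78e-05). UCA1, a long non-coding RNA known from bladder cancer, was at 84.8, 45.6 and 39.7 CPM against 6.31, 6.18 and 3.48 CPM (log2 difference 3.42, SE 0.456, adjusted p = 0.00026). TIE1, an endothelial receptor kinase of the angiopoietin system, was at 5.22, 4.2 and 3.76 CPM against 0.974, 0.653 and 0.869 CPM, with shNT between them at 1.88, 2.17 and 2.37 CPM. For TIE1 the hairpins lay on opposite sides of shNT, at 1.04 (adjusted p = 0.0271) for shNRP1#5 and −1.39 (adjusted p = 0.035) for shNRP1#3.

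ID3, an inhibitor of basic helix-loop-helix factors and a BMP target, was at 24.6, 37.5 and 30 CPM in shNRP1#5 and at 7.87, 6.29 and 6.92 CPM in shNRP1#3. DCLK1, a microtubule-associated kinase, was at 17.1, 26.3 and 28.2 CPM against 3.57, 4.88 and 8.04 CPM. The cation channel gene TRPM2 (log2 difference 2.03, adjusted p = 0.000521), the kinesin gene KIF17 (2.26, adjusted p = 1.76e-05) and the serpin gene SERPINB7 (2, adjusted p = 0.000147) completed those of known role. KRTAP2-3 (3.2, adjusted p = 1.96e-06) and SPANXB1 (2.67, adjusted p = 0.000127) belong to families of near-identical copies, so their reads may be shared. All 12 of these genes had groups that did not overlap, which the naming required and which held for 44.9% of all tested genes in either direction. With shNRP1#3 replicates 2 and 3 left out, TIE1 (adjusted p = 0.0591), ID3 (0.0851) and SERPINB7 (0.0574) were no longer called.

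Among the 12 genes with the largest decreases, 8 had their highest values in the shNRP1#3 samples with other-line RNA. COL1A2, a fibrillar collagen chain, was at 0.274, 0.361 and 0.0848 CPM in shNRP1#5 and at 0.649, 0.801 and 111 CPM in shNRP1#3, where replicate 3 alone was high. Its log2 difference of −7.31 became −1.64 without that sample (adjusted p = 0.493). BGN (biglycan) was at 0, 0.0212 and 0.017 CPM against 0.0722, 0.049 and 32.6 CPM, and its −9.64 became −2.1 without replicate 3 (adjusted p = 0.663). COL3A1 (adjusted p = 0.398) and the integrin ITGA11 (adjusted p = 0.473) likewise lost the call without it.

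The aminopeptidase ANPEP was at 0.0722, 3.01 and 8.04 CPM in shNRP1#3 and the gelatinase MMP2 at 0.253, 9.36 and 17.4 CPM, against at most 0.0848 CPM for either in shNRP1#5. These 2 genes were high in replicates 2 and 3 and lowest in replicate 1, and with the other lines' reads subtracted neither was called (adjusted p = 0.0755 and 0.0634). KYNU, a kynurenine pathway enzyme, was at 0.289, 2.68 and 3.21 CPM in shNRP1#3 and kept its call after subtraction (adjusted p = 0.00113), but not with replicates 2 and 3 left out (adjusted p = 0.415). The matrix protein MGP was at 0.613, 0.735 and 8.06 CPM against at most 0.151 CPM, and its call was lost with replicates 2 and 3 left out (adjusted p = 0.0751).

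Other decreases were present in every shNRP1#3 sample. LGALS12, a galectin, was at 0.165, 0.0637 and 0.119 CPM in shNRP1#5, at 2.63, 2.12 and 2.03 CPM in shNRP1#3 and at 6.19, 7.38 and 6.43 CPM in shNT (log2 difference between the hairpins −4.18, SE 0.454, adjusted p = 1.76e-05). ELF3, an epithelial transcription factor, was at 0.59, 0.127 and 0.237 CPM against 5.16, 3.58 and 3.05 CPM (−3.52, SE 0.484, adjusted p = 0.000209). The matrix gene ABI3BP was at 0.206, 0.17 and 0.0678 CPM against 4.26, 1.57 and 1.49 CPM (−3.98, SE 0.479, adjusted p = 3.41e-05), above its 0.227 to 0.475 CPM in shNT. LCN2 (lipocalin-2), an iron-carrier-binding protein, was at 0.713, 0.467 and 0.322 CPM against 19.3, 4.31 and 2.38 CPM (−4.02, SE 1.21, adjusted p = 0.0425), with the highest value in replicate 1 of both shNRP1#3 and shNT (34.9 CPM). With shNRP1#3 replicates 2 and 3 left out LCN2 was no longer called (adjusted p = 0.0561).

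A second list took the 12 largest decreases after subtraction of the other lines' reads among genes also called without shNRP1#3 replicate 3. It kept LGALS12, LCN2, ABI3BP and ELF3 and gained 8 genes, named here after their values were seen. COL1A2, BGN and COL3A1 were still called after subtraction, and were left out of this list because they lost the call without replicate 3. RNF43, a ubiquitin ligase that removes Wnt receptors, was at 0.165, 0.149 and 0.305 CPM in shNRP1#5 and at 2.31, 2.34 and 2.14 CPM in shNRP1#3. DIO2, the deiodinase that activates thyroid hormone, was at 0.782, 1.12 and 0.933 CPM against 11.7, 5.38 and 5.02 CPM, and shNT was at 0.932, 0.464 and 0.273 CPM, so that shNRP1#3 stood apart. BMP5, a bone morphogenetic protein, was at 0.398, 0.318 and 0.254 CPM against 3.79, 2.42 and 2.26 CPM. The other 5 were the complement factor gene CFB, ITIH4, the meiotic gene SHOC1, SPINK4 and the actin nucleator gene COBL, with log2 differences between −2.91 (CFB) and −3.43 (ITIH4) before subtraction, and of the 8 CFB was not called with shNRP1#3 replicates 2 and 3 left out (adjusted p = 0.0555).

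**Figure D3:**
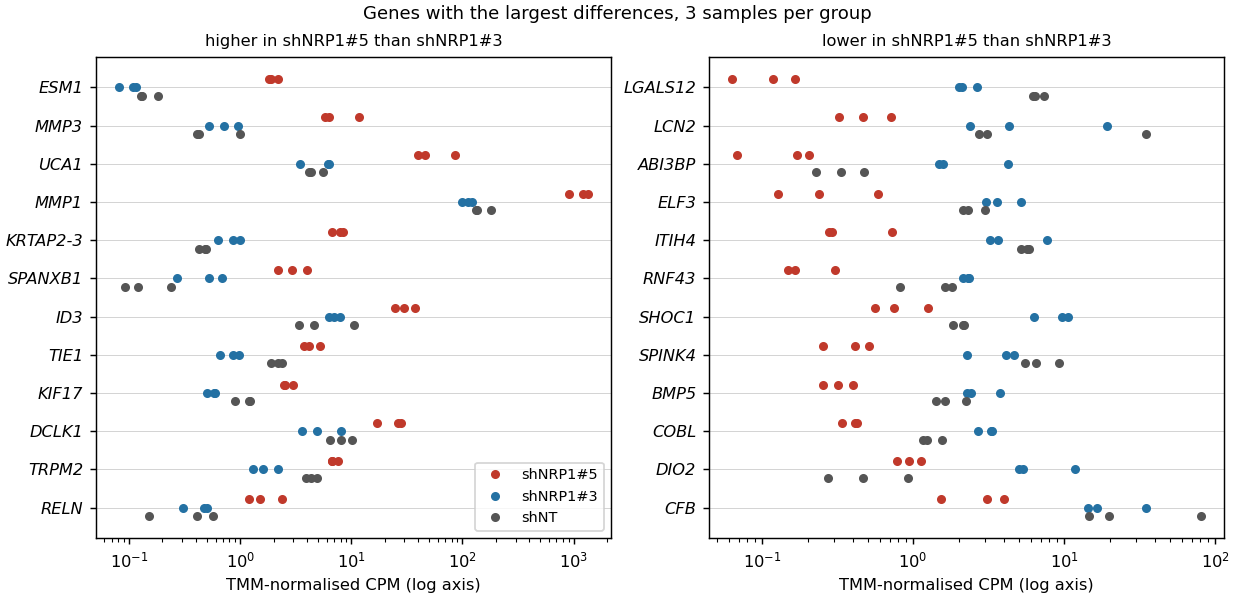
TMM-normalised CPM (log axis), before subtraction, with 3 points per group for shNRP1#5, shNRP1#3 and shNT. Shown are the 12 largest increases and 12 largest decreases after subtraction of the other lines' reads. Only genes also called without shNRP1#3 replicate 3 entered. In MMP1 and ESM1 shNRP1#5 stands apart from both others, in DIO2 and ABI3BP shNRP1#3 stands highest.

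For 24 gene lists, members called in each direction were counted beside the 5.96% higher and 8.24% lower over all genes. Counts under the other settings have another background, which was 3.24% higher and 5.38% lower without shNRP1#3 replicate 3, 0.868% and 1.86% with replicates 2 and 3 left out, and 6.02% and 8.09% after subtraction. Lists with a larger lower share included collagens and matrix glycoproteins (22 of 35 lower, none higher), MHC class I and antigen processing (8 of 15), interferon-stimulated genes (20 of 40, with 1 higher), mitochondrially encoded genes (6 of 13) and cytokines and chemokines (14 of 31, with 1 higher). Larger higher shares were found in NRF2 targets and glutathione genes (6 of 24), DNA replication and S-phase genes (7 of 35), MAPK feedback and immediate early genes (6 of 31) and proteases and plasminogen activator genes (4 of 22).

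**Figure D4:**
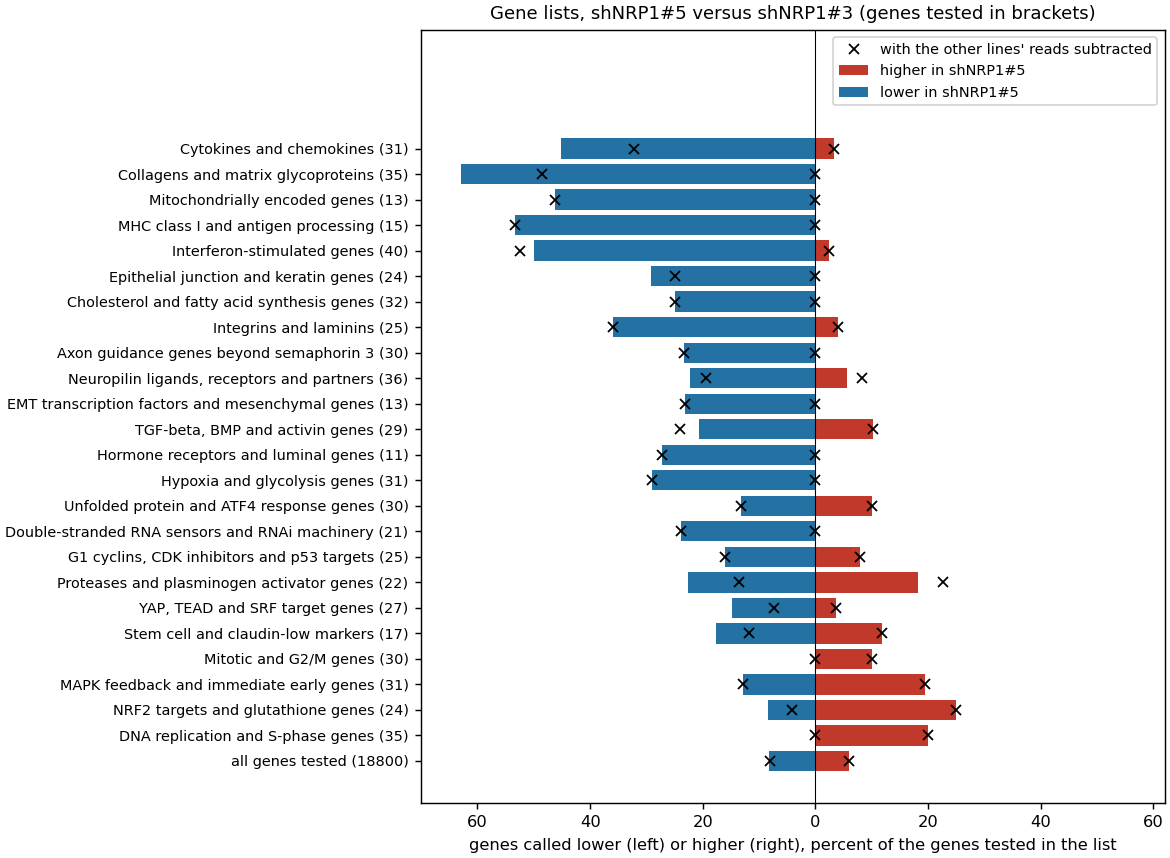
Percent of the tested members of each gene list called lower (left, blue) or higher (right, red) in shNRP1#5 than in shNRP1#3, ordered by the median log2 fold change, with all genes at the bottom and crosses for the counts after subtraction of the other lines' reads. Collagens reach 62.9% lower, or 48.6% after subtraction, beside 8.24% of all genes.

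Neuropilin ligands, receptors and partners were described first among the lists. FLT1 (VEGF receptor 1) was at 1.23, 1.06 and 0.831 CPM in shNRP1#5 and at 0.144, 0.392 and 0.232 CPM in shNRP1#3, and was at 0.88 to 0.932 CPM in shNT (log2 difference between the hairpins 1.94, SE 0.324, adjusted p = 0.000735). Here shNRP1#3 alone was low. PLXNA2, a plexin that signals for class 3 semaphorins, was at 29.9, 39.6 and 33.7 CPM against 16.5, 18 and 20.2 CPM (0.91, adjusted p = 0.00495). The semaphorin ligand SEMA3B was at 18.3, 13.9 and 13.9 CPM against 46.6, 41.2 and 34 CPM (−1.4, adjusted p = 0.000735), and the adhesion molecule L1CAM, which binds NRP1, was at 76.9, 63.6 and 57.4 CPM against 192, 161 and 163 CPM (−1.38, adjusted p = 5.6e-05). In SEMA3B and L1CAM shNRP1#5 alone was low. PLXNA3 (−0.96, adjusted p = 0.0017) was also lower. Among the 26 of 36 members not called were TGFBR2, a TGF-beta receptor (−0.47, adjusted p = 0.0906), and GIPC1 (−0.05, adjusted p = 0.865). In all, 2 members were higher and 8 lower. Of the 30 axon guidance genes beyond semaphorin 3, 7 were lower and none higher, among them the semaphorin receptor PLXNB1 (−1.19, adjusted p = 0.00203), its ligand SEMA4D (−0.85, adjusted p = 0.00299) and NTN4, a netrin (−1.23, adjusted p = 0.00583). In all, 5 axon guidance genes were lower and 1 higher without shNRP1#3 replicate 3, and with replicates 2 and 3 left out 2 were lower.

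Matrix genes were mostly lower in shNRP1#5. COL5A1, a chain of a fibril-initiating collagen, was at 97.3, 99.8 and 75.3 CPM in shNRP1#5 and at 252, 180 and 257 CPM in shNRP1#3, near its 184 to 234 CPM in shNT (log2 difference −1.34, SE 0.155, adjusted p = 2.59e-05). LOXL4, a collagen cross-linking oxidase, was at 19.4, 12.1 and 11.8 CPM against 85, 63.5 and 56.5 CPM (−2.24, SE 0.281, adjusted p = 8.83e-05). Both were low in shNRP1#5 alone and were called under all 3 ways of removing other-line RNA. LUM (lumican) was at 0.178, 0.17 and 0.136 CPM against 1.59, 0.85 and 1.93 CPM (−3.14, adjusted p = 3.41e-05), with an estimated 92.5% of its reads in replicate 3 from the other lines, and COL12A1 was not called (−0.42, adjusted p = 0.0906). The 22 lower members of this list became 17 after subtraction, 12 without shNRP1#3 replicate 3 and 8 with replicates 2 and 3 left out, and the list's median of −0.92 became −0.71, −0.6 and −0.71.

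Integrins and laminins had 9 of 25 members lower and 1 higher. ITGB4, the beta chain of the hemidesmosome integrin, was at 55.2, 44.7 and 42 CPM in shNRP1#5 and at 205, 180 and 181 CPM in shNRP1#3, with 219 to 231 CPM in shNT (log2 difference −2, SE 0.217, adjusted p = 1.82e-05). The laminin chain genes LAMA5 (−1.25, adjusted p = 0.00467) and LAMB2 (−0.85, adjusted p = 0.005) were lower, and LAMA1 was higher (0.88, adjusted p = 0.0174). ITGA3 (−0.47, adjusted p = 0.0557) and ITGB1 (−0.31, adjusted p = 0.168) were not called. The 9 lower members were 9 after subtraction, 3 without shNRP1#3 replicate 3 and 3 with replicates 2 and 3 left out.

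Genes of epithelial junctions were lower where they were called, with 7 of 24 lower and none higher. JUP (plakoglobin), which links cadherins to keratin, was at 22.1, 14.1 and 13.1 CPM against 43.2, 43 and 41.3 CPM (−1.37, adjusted p = 0.000639), with shNT at 61.6 to 86.7 CPM. The tight junction genes CLDN4 (−0.82, adjusted p = 0.00526) and TJP3 (−2.43, adjusted p = 0.0136) were lower, and KRT18 was not called (0.23, adjusted p = 0.382). TJP3 was near 0, with a mean of 0.226 CPM over the 6 samples, beside 116 CPM for CLDN4. The 7 lower became 6 after subtraction, 5 without shNRP1#3 replicate 3 and 1 of 25 with replicates 2 and 3 left out. In the list of EMT transcription factors and mesenchymal genes, 3 of 13 were lower. FN1 (fibronectin) was at 174, 272 and 186 CPM against 521, 320 and 625 CPM (−1.22, adjusted p = 0.0311) and was not called without shNRP1#3 replicate 3 (adjusted p = 0.106). CDH2 (N-cadherin) was at 0.361, 0.882 and 3.61 CPM in shNRP1#3 and was not called without that sample either (adjusted p = 0.203). S100A4, a calcium-binding protein of motile cells, was at 441, 270 and 230 CPM against 495, 611 and 476 CPM (−0.75, adjusted p = 0.0247), and VIM was not called (−0.14, adjusted p = 0.518). Without shNRP1#3 replicate 3, 1 of the 13 was lower and 1 higher.

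Protease genes moved in both directions. Beside MMP1 and MMP3, the plasminogen activator inhibitor SERPINB2 was at 82.8, 48.4 and 62.1 CPM in shNRP1#5 and at 21.9, 26.5 and 13.6 CPM in shNRP1#3, both above the 0.834 to 1.5 CPM of shNT (log2 difference between the hairpins 1.64, adjusted p = 0.00102). TIMP2, a metalloprotease inhibitor, was at 539, 526 and 509 CPM against 763, 773 and 749 CPM (−0.54, adjusted p = 0.00706). MMP11 was lower (−1.38, adjusted p = 0.0131) and MMP14, the membrane-bound collagenase, was not called (−0.53, adjusted p = 0.0517). In this list 4 of 22 were higher and 5 lower, or 5 and 3 after subtraction, and 4 and 3 without shNRP1#3 replicate 3.

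Interferon-stimulated genes are switched on by interferon receptors or by sensors of double-stranded RNA. BST2 (tetherin), which holds budding viruses at the membrane, was at 2.33, 1.44 and 0.882 CPM in shNRP1#5, at 5.95, 6.4 and 8.73 CPM in shNRP1#3 and at 11.8 to 12.5 CPM in shNT (log2 difference −2.16, SE 0.234, adjusted p = 1.68e-05). IFIT3, an antiviral protein, was at 54.7, 59.2 and 47.6 CPM against 141, 112 and 127 CPM (−1.23, SE 0.203, adjusted p = 0.000723), and the antiviral GTPase gene MX2 was also lower (−1.33, adjusted p = 0.000469). For IFIT3 shNRP1#3 overlapped shNT (98.2 to 147 CPM), whereas BST2 lay between. USP18, which dampens interferon signalling, was the 1 member higher (0.68, adjusted p = 0.0151), and IFITM3 was not called (−0.44, adjusted p = 0.168). The list had 20 of 40 lower, 21 after subtraction, 14 without shNRP1#3 replicate 3 (35%, beside 5.38% of all genes) and 7 of 41 with replicates 2 and 3 left out (17.1%, beside 1.86%), with a median of −0.61.

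Of the 21 genes for double-stranded RNA sensors and the RNA interference machinery, 5 were lower and none higher. The sensors IFIH1 (4.57, 5.05 and 4.09 CPM against 15, 9.79 and 11.9 CPM, −1.42, adjusted p = 0.000493), DHX58 (−1.28, adjusted p = 0.000276) and TLR3 (−1.08, adjusted p = 0.000597) were lower, and the editing enzyme gene ADAR (adjusted p = 0.51) and the adaptor gene MAVS (adjusted p = 0.74) were not called. Of 15 genes for MHC class I and antigen processing, 8 were lower, with a median of −0.68. HLA-F was at 3.44, 3.23 and 2.66 CPM against 14, 8.2 and 8.77 CPM (−1.72, adjusted p = 0.000871), a value that near-identical HLA genes may share. TAPBP (tapasin), which loads peptides, was at 180, 156 and 139 CPM against 318, 312 and 313 CPM (−0.99, adjusted p = 0.00016), and ERAP1, which trims them, was lower (−0.68, adjusted p = 0.000786). After subtraction 8 members were lower, without shNRP1#3 replicate 3 there were 7, and with replicates 2 and 3 left out 6.

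Of 31 cytokine and chemokine genes, 14 were lower and 1 higher. IL11, the 1 higher, a cytokine of the interleukin-6 family, was at 49.7, 42.7 and 49 CPM in shNRP1#5 and at 14.5, 21.5 and 21.5 CPM in shNRP1#3 (log2 difference 1.3, SE 0.195, adjusted p = 0.000294). TNFSF10 (TRAIL), a death ligand, was at 6.38, 3.31 and 3.78 CPM against 23.2, 18.3 and 21.8 CPM (−2.22, adjusted p = 0.00164). IL32 (−1.29, adjusted p = 0.00105) and the chemokine gene CXCL11 (−3.12, adjusted p = 0.00105) were lower, and ICAM1, the receptor for leukocyte integrins, was not called (−1.08, adjusted p = 0.0636). An estimated 71.7% of the CXCL11 reads of shNRP1#3 replicate 3 came from the other lines. The 14 lower of 31 became 10 after subtraction, 10 without shNRP1#3 replicate 3 and 7 with replicates 2 and 3 left out.

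Genes of DNA replication were higher where called, in 7 of 35 and with a list median of 0.3. RRM2, a subunit of ribonucleotide reductase, was at 275, 327 and 331 CPM in shNRP1#5 and at 154, 167 and 180 CPM in shNRP1#3 (log2 difference 0.9, SE 0.203, adjusted p = 0.00766), with 205 to 270 CPM in shNT. The licensing factor gene CDT1 (0.67, adjusted p = 0.00241) and the clamp loader gene RFC2 (0.45, adjusted p = 0.00733) were higher, and the helicase gene MCM7 (0.22, adjusted p = 0.2) and TK1 (0.4, adjusted p = 0.0823) were not called. Mitotic genes were higher in 3 of 30, namely CDC20, the activator of the anaphase-promoting complex (397, 439 and 398 CPM against 257, 252 and 287 CPM, 0.63, adjusted p = 0.00351), and the kinase genes PLK1 (0.37, adjusted p = 0.0324) and AURKB (0.3, adjusted p = 0.0452), and TPX2 was not called (adjusted p = 0.388). Without shNRP1#3 replicate 3, 5 replication genes and 1 mitotic gene were called, and with replicates 2 and 3 left out none of either, although the replication list's median stayed at 0.28.

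Of 25 genes for G1 cyclins, CDK inhibitors and p53 targets, 2 were higher and 4 lower. CCND1 (cyclin D1) was at 551, 636 and 651 CPM against 397, 430 and 433 CPM (0.54, adjusted p = 0.0244), with shNT at 551 to 684 CPM, and its partner CDK4 was higher by 0.43 (adjusted p = 0.0182). The CDK inhibitors CDKN1B (−0.52, adjusted p = 0.0155) and CDKN2C (−0.41, adjusted p = 0.032) and the retinoblastoma family member RBL2 (−0.67, adjusted p = 0.0198) were lower. Without shNRP1#3 replicate 3, 1 of the 25 was lower and none higher.

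The MAPK feedback and immediate early genes had 6 of 31 higher and 4 lower. ETV4, an ETS factor downstream of ERK, was at 127, 119 and 118 CPM in shNRP1#5, at 51.5, 62.6 and 65.4 CPM in shNRP1#3 and at 96.2 to 103 CPM in shNT (log2 difference 1.02, SE 0.12, adjusted p = 2.74e-05), so that shNRP1#3 was low. The ERK phosphatase gene DUSP2 (1.53, adjusted p = 0.00127) and FOSL1, an AP-1 subunit (0.57, adjusted p = 0.00956), were higher. JUND, another AP-1 subunit (−1.27, adjusted p = 0.000157), and the EGF receptor ligand genes EREG (−1.12, adjusted p = 0.00722) and AREG (−0.87, adjusted p = 0.0293) were lower. Without shNRP1#3 replicate 3, 3 were higher and 4 lower.

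CCN2 (CTGF), a matricellular target of YAP and TGF-beta, was at 278, 353 and 325 CPM against 82.8, 103 and 106 CPM (log2 difference 1.71, SE 0.186, adjusted p = 1.68e-05), with shNT between the hairpins at 157, 239 and 162 CPM. It was the 1 of 27 YAP, TEAD and SRF target genes that was higher, with 4 lower, among them TPM2 and MYL9, genes of the contractile apparatus. TPM2 was at 14.1, 15.4 and 28.6 CPM in shNRP1#3 and was not called after subtraction (adjusted p = 0.127), and MYL9 was at 330, 331 and 321 CPM against 468, 450 and 476 CPM (−0.51, adjusted p = 0.0259). After subtraction 2 of the list were lower, and without shNRP1#3 replicate 3 there was 1.

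Among 29 TGF-beta, BMP and activin genes 3 were higher and 6 lower. Beside ID3, ID1 was at 72.7, 87.7 and 64.9 CPM against 38.1, 32.1 and 34.2 CPM (1.11, adjusted p = 0.00418), and ID2, at 1.22 to 1.57 CPM against 0.539 to 0.722 CPM, was not called after subtraction (adjusted p = 0.0602). FST (follistatin), which binds activins, was at 31.3, 35.5 and 36.9 CPM against 133, 135 and 104 CPM (−1.84, SE 0.174, adjusted p = 4.91e-06), and for it shNT lay between the hairpins at 63 to 90.4 CPM. The ligand gene TGFB2 (−0.87, adjusted p = 0.000835) and its signal transducer SMAD3 (−0.82, adjusted p = 0.000854) were lower. With shNRP1#3 replicates 2 and 3 left out, 3 of the list were lower and none higher.

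Cholesterol and fatty acid synthesis genes were lower in 8 of 32 and higher in none. SREBF1, the transcription factor of lipid synthesis, was at 47.5, 41.3 and 36.8 CPM in shNRP1#5 and at 156, 160 and 168 CPM in shNRP1#3, close to the 154 to 185 CPM of shNT (log2 difference −1.94, SE 0.21, adjusted p = 1.76e-05). SCD, which desaturates fatty acids, was at 286, 165 and 225 CPM against 550, 1168 and 878 CPM (−1.94, adjusted p = 0.000449). The list median was −0.42, but 0.04 with shNRP1#3 replicates 2 and 3 left out, when 2 members were lower. In hypoxia and glycolysis genes, 9 of 31 were lower, with a median of −0.12, or 9 after subtraction, 6 without shNRP1#3 replicate 3 and 1 with replicates 2 and 3 left out. The carbonic anhydrase gene CA9 was at 0.411, 0.297 and 0.288 CPM against 2.99, 2.55 and 2.65 CPM (−3, adjusted p = 0.00409, with an estimated 51.9% of the reads of shNRP1#3 replicate 3 from the other lines), the hypoxia-induced demethylase gene KDM3A at 33.6, 29.7 and 35.3 CPM against 58.2, 59.1 and 64.6 CPM (−0.88, adjusted p = 0.000579), and PDK1 was lower too (−0.76, adjusted p = 0.00649). GAPDH was not called (0.29, adjusted p = 0.185).

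Of 24 NRF2 targets and glutathione genes, 6 were higher and 2 lower. SLC7A11, the cystine transporter, was at 102, 135 and 135 CPM in shNRP1#5 and at 59.5, 55.8 and 50.6 CPM in shNRP1#3, with 33.1 to 38.9 CPM in shNT (log2 difference 1.16, SE 0.23, adjusted p = 0.00307). OSGIN1 (1, adjusted p = 0.00105) and the sulfiredoxin gene SRXN1 (0.63, adjusted p = 0.00106) were higher, but HMOX1 (haem oxygenase) was lower, at 52, 37.7 and 38.6 CPM against 83, 105 and 71.9 CPM (−1.02, adjusted p = 0.00105). For HMOX1 shNRP1#3 was above shNT (41.7 to 54.4 CPM). SLC3A2, which pairs with SLC7A11 at the membrane, was among the 3 higher of 30 unfolded protein and ATF4 response genes (0.74, adjusted p = 0.00609), and the 4 lower included the stress-induced mTOR inhibitor gene DDIT4 (−1.67, adjusted p = 0.0158) and the chaperone gene HSP90B1 (−0.49, adjusted p = 0.024). With shNRP1#3 replicates 2 and 3 left out, none of the NRF2 or unfolded protein genes was higher.

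All 13 mitochondrially encoded genes were tested, and 6 were lower in shNRP1#5 with a median of −0.69. MT-CYB was at 980, 905 and 894 CPM against 2236, 1566 and 1684 CPM (−0.98, adjusted p = 0.005), and MT-ND5 (−0.97, adjusted p = 0.0103) and MT-ATP6 (−0.8, adjusted p = 0.0224) were lower. Against shNT none of the 13 was called for either hairpin, with medians of −0.31 for shNRP1#5 and 0.4 for shNRP1#3. MT-CO1 was not called (−0.68, adjusted p = 0.0663). There were 4 lower without shNRP1#3 replicate 3, and 3 with replicates 2 and 3 left out. Copies of these genes in the nuclear genome may share their reads.

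Stem cell and claudin-low markers had 2 of 17 higher and 3 lower, or 2 and 1 without shNRP1#3 replicate 3, none and 1 with replicates 2 and 3 left out, and 2 and 2 after subtraction. MSI1, an RNA-binding protein of stem cells, was at 0.85, 0.679 and 0.594 CPM in shNRP1#5, 0.18, 0.163 and 0.0773 CPM in shNRP1#3 and 0.694 to 1.02 CPM in shNT (log2 difference 2.36, adjusted p = 0.000534), so that shNRP1#3 alone was low, and the neurotrophin receptor gene NGFR was higher (0.98, adjusted p = 0.0151). KLF4, a pluripotency factor, was at 29.2, 23.6 and 25.2 CPM against 43.8, 37.8 and 36.4 CPM (−0.6, adjusted p = 0.00445). CD44 (adjusted p = 0.52) and ITGA6 (adjusted p = 0.307) were not called. Hormone receptors and luminal genes were lower in 3 of 11, or 1 of 12 with shNRP1#3 replicates 2 and 3 left out, among them ERBB3, a receptor for neuregulins (−1.17, adjusted p = 0.00831), and the luminal factor gene TFAP2A (−0.66, adjusted p = 0.0109).

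Against shNT, the lists that were lower with shNRP1#5 were counted separately for each hairpin, with the shNT samples shared. Interferon-stimulated genes had 25 of 40 lower with shNRP1#5 and 3 with shNRP1#3, and hypoxia and glycolysis genes 18 of 31 and 3. Cholesterol and fatty acid synthesis genes had 15 of 32 lower with shNRP1#5 and 2 with shNRP1#3. In collagens and matrix glycoproteins, 14 of 35 were lower with shNRP1#5, whereas 6 were higher and none lower with shNRP1#3, a count from the fit that included the shNRP1#3 samples with other-line RNA and not computed without them. Over all genes, 11.9% were lower and 8.79% higher with shNRP1#5, and 2.19% lower and 1.46% higher with shNRP1#3.

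The siRNA pair, which shared no sample with the hairpins, differed in 7329 genes (39%). Of the 1121 genes higher with the hairpin, 330 (29.4%) were also higher with siNRP1#5 than siNRP1#3, beside 20% of all genes, and 164 (14.6%) were lower, beside 18.9%. Of the 1549 genes lower with the hairpin, 400 (25.8%) were lower with the siRNA, beside 18.9%, but 402 (26%) were higher, beside 20%. These 330 and 400 genes were 8.76% and 11.2% of the siRNA pair's own calls. With other-line reads subtracted, 341 of 1131 higher genes (30.2%) had the same direction and 160 (14.1%) the opposite one, beside 20.1% and 18.9%. Of 1520 lower genes, 410 (27%) had the same direction and 401 (26.4%) the opposite one, beside 18.9% and 20.1%. The difference between the pairs was itself called in 5388 genes (28.7%), among them 1331 of the 2670 (49.9%).

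Hypoxia and glycolysis genes, lower in 9 of 31 with the hairpins, were higher in 21 and lower in none with the siRNAs, and epithelial junction and keratin genes were higher in 14 of 24 and lower in 2. Cytokines and chemokines were lower in 15 of 31 and higher in 4, and MHC class I genes lower in 7 of 15 and higher in 1. Interferon-stimulated genes, lower in 20 of 40 with the hairpins, were higher in 16 and lower in 8 with the siRNAs. Collagens and matrix glycoproteins were higher in 12 of 35 and lower in 2, and DNA replication genes higher in 4 of 35 and lower in 11. Over all genes, 20% were higher and 18.9% lower with the siRNAs. ITGB4 (−2.12, adjusted p = 6.31e-07) and UCA1 (1.83, adjusted p = 0.00354) had the same direction with the siRNAs, whereas MMP1 (−0.19, adjusted p = 0.462) was not called and ESM1 (−2.67, adjusted p = 9.25e-05), LGALS12 (4.5, adjusted p = 1.82e-07) and SHOC1 (3.4, adjusted p = 1.21e-07) had the opposite one. The siRNA groups also differed from the hairpin groups in the sequence of #3, the harvest at 72 hrs and transfection, which cannot be told apart here.

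With the same hairpins in SUM159PT, 1747 of 20067 genes (8.71%) differed, 4.91% higher and 3.8% lower. Of the genes higher in MDA-MB-231 and tested in both lines, 158 of 1032 (15.3%) were also higher in SUM159PT, beside 4.51% of the genes tested in both, and 8 (0.775%) were lower. Of the genes lower in MDA-MB-231, 175 of 1470 (11.9%) were lower, beside 3.64%, and 89 (6.05%) were higher, beside 4.51%. The 158 and 175 genes were 20.4% of the 776 higher and 27.9% of the 627 lower calls in SUM159PT among genes tested in both lines. The difference between the lines was called in 1344 of 22039 genes (6.1%, of which 1.52% higher and 4.58% lower in MDA-MB-231), among them 396 of the 2670 (14.8%). Some of the SUM159PT samples held an estimated 0.404% (shNRP1#3 replicate 3), 0.428% and 0.919% (shNRP1#5 replicates 1 and 2) of MDA-MB-231 reads. With all other-line reads subtracted in both lines, 165 of 1046 (15.8%) and 162 of 1435 (11.3%) genes had the same direction.

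UCA1 (8.89, adjusted p = 0.000112), TIE1 (3.88, adjusted p = 0.00777), DCLK1 (3.36, adjusted p = 0.00121), ITGB4 (−2.3, adjusted p = 0.0176), CXCL11 (−3.84, adjusted p = 0.00535), CA9 (−4.28, adjusted p = 0.000233), MX2 (−1.81, adjusted p = 0.00682), HLA-F (−3.01, adjusted p = 0.00205) and HMOX1 (−1.88, adjusted p = 0.0169) were called in the same direction in SUM159PT. MHC class I and antigen processing had 10 of 15 lower there and none higher, whereas interferon-stimulated genes had 3 of 40 lower and 1 higher. Of the genes tested in both lines, 3.64% were lower and 4.51% higher in SUM159PT. LGALS12 (5.7, adjusted p = 0.00722), L1CAM (3.27, adjusted p = 4.92e-05), SEMA3B (3.19, adjusted p = 3e-05), CLDN4 (4.55, adjusted p = 9.15e-06) and FST (3.4, adjusted p = 0.0165) were called in the opposite direction, and collagens were higher in 8 of 34 and lower in 3. Some of these levels were near 0. In SUM159PT, TIE1 was at 0.528, 0.357 and 0.215 CPM in shNRP1#5 against 0.0155, 0.0568 and 0 CPM in shNRP1#3. LGALS12 and UCA1 were at most 0.0851 and 0.167 CPM in SUM159PT shNRP1#3.

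Seed matches to the hairpins were counted in the 3′ UTR of each gene's most abundant annotated transcript. The #5 guide starts, after its first base, with UAAGUGC, whose match in a UTR is GCACTTA. The same 7 bases, written here in capitals, stand at bases 1 to 7 of 5 human microRNAs of the miR-302 family, 1 base earlier than in the guide, and in no human microRNA searched do they stand at bases 2 to 8.
hsa-miR-302a-3p: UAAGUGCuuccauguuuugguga
hsa-miR-302b-3p: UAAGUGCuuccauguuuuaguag
hsa-miR-302c-3p: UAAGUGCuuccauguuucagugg
hsa-miR-302d-3p: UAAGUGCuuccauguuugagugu
hsa-miR-302e: UAAGUGCuuccaugcuu
No human microRNA searched held the #3 seed AUACUAA at either position. The sequences are from RefSeq on GRCh38.

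A 3′ UTR was annotated for 13915 of the 13982 tested protein-coding genes (99.5%), and for 13920 genes in all. GCACTTA, searched on the sense strand, was found in 958 of these UTRs and the #3 match, TTAGTAT, in 1212. In MDA-MB-231 with the hairpins, genes with a #5 match had a median log2 difference of −0.0439, beside −0.0096 for those without. Of the 958, 4.28% were higher and 11.5% lower in shNRP1#5, beside 6.88% and 9.81% of genes without a match. The 92 genes with 2 or more matches had a median of −0.145, with 2.17% higher and 13% lower. Genes with a #3 match had a median of 0.0128, with 6.44% higher and 8.42% lower.

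The same 7 bases divided the genes more widely in the MDA-MB-231 siRNA pair and in SUM159PT with the hairpins. In the siRNA pair, whose siNRP1#5 has the same sequence, genes with a #5 match had a median of −0.414, with 10.6% higher and 47.1% lower, beside 0.0679, 23.9% and 16.2% for genes without. In SUM159PT with the hairpins the median was −0.282, with 3.31% higher and 14.4% lower, beside 0.014, 5.35% and 3.73%. Genes with a match had longer UTRs (median 2618 bases, beside 810 bases), so genes of like UTR length were set beside each other for the MDA-MB-231 hairpins. In UTRs of up to 489 bases, 11.5% of 52 genes with a #5 match and 8.58% of 4593 without were lower. In UTRs of 490 to 1532 bases these were 14.6% of 199 and 10.2% of 4438, and in UTRs of 1533 bases or more 10.6% of 707 and 10.8% of 3931. The shares that were higher, in the same order of length, were 1.92%, 3.02% and 4.81% with a match and 7.32%, 6.69% and 6.59% without.

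**Figure D5:**
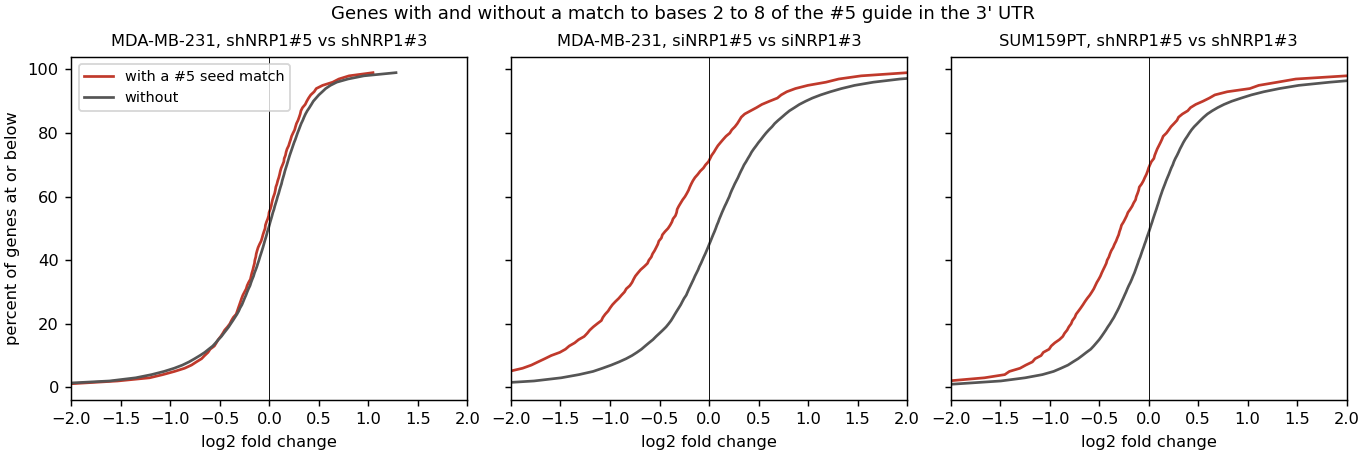
Cumulative share of genes (percent at or below a log2 fold change) with (red) and without (grey) a match to bases 2 to 8 of the #5 guide in the 3′ UTR, in MDA-MB-231 with the hairpins, MDA-MB-231 with the siRNAs and SUM159PT with the hairpins. The curves are nearly on each other in the panel of MDA-MB-231 hairpins (medians −0.0439 and −0.0096) and apart in the siRNA panel (−0.414 and 0.0679) and the SUM159PT panel (−0.282 and 0.014).

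Longer matches were rare. In transcripts of the tested genes other than NRP1, no match to the whole of either site was found, and 7 genes shared 14 bases or more with the shNRP1#3 site and 2 with the shNRP1#5 site. The longest, 16 bases, was in TP53BP1, a DNA damage response gene, which was not called between the hairpins (−0.25, adjusted p = 0.124). Of the others, 3 were called, named after their values were seen. HCP5 (14 bases of the shNRP1#3 site) was lower in shNRP1#5 (−1.79, adjusted p = 0.000294), CLCN4 (14 bases of the same site) was higher (0.49, adjusted p = 0.0262), and CTSC (14 bases of the shNRP1#5 site) was higher (0.73, adjusted p = 0.00028).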

How the data were processed

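Libraries were made from polyA-enriched RNA with a strand-specific kit and sequenced in pairs. The authors trimmed reads with Trim Galore 0.6.5, checked them with FastQC 0.11.9, aligned them to GRCh38 with STAR 2.7.2b and quantified them with RSEM 1.3.3. The authors deposited expected counts per gene and transcript, which are RSEM's estimates and were rounded to whole numbers here, TPM (transcript abundance scaled to library and length, by the authors), and the percent of each gene's TPM per transcript. Genes in the deposited count table numbered 78894, and every column was matched to a sample.

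Genes were tested with edgeR 4.0.16 in R 4.3.3 (filterByExpr, TMM normalisation, robust quasi-likelihood F test) in 1 model of all 18 MDA-MB-231 samples with 6 group means, and p-values were adjusted by Benjamini-Hochberg over all 18800 tested genes, called under 0.05. SE is the log2 fold change divided by the root of F. CPM are TMM-normalised. SUM159PT was fitted in the same way, and differences between pairs or lines were interaction terms. Shares of NRP1 were compared by exact permutation. Other-line reads were estimated as the median level of markers of 1 line relative to that line's non-targeting controls. They were subtracted before rounding, in proportion to the mean of those controls. UTRs were taken from GENCODE release 44. The gene test was also run on simulated counts without other-line reads. The subtraction, seed, list, transcript and between-line steps were not tested in this way. Alternatives were DESeq2 1.42.0, other normalisation, filters, samples and a replicate block. Samples and gene lists were chosen with earlier results of these data known. Named genes were NRP1, the 12 largest differences in each direction among called genes of at least 1 CPM with groups that do not overlap, and from each list up to 3 called members per direction by adjusted p and up to 2 not called by level. Not every gene the rule gave is printed.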

Additional observations from a re-analysis of the deposited data

Results flagged for a closer look

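For 41 named genes the difference between the hairpins itself differed between MDA-MB-231 and SUM159PT (interaction term, edgeR, adjusted p under 0.05 over all genes). In 27 of them the estimates had opposite signs in the 2 lines, a count that required no call in SUM159PT. Some SUM159PT estimates among the 27 were near 0, such as those of COL5A1 (0.003), DIO2 (0.084) and MGP (0.093), so the 27 are not all reversals. The values below are the log2 difference in MDA-MB-231 minus that in SUM159PT. It was positive for NRP1 (1.43), MMP3 (2.91), MMP1 (2.99), KRTAP2-3 (3.43), SPANXB1 (4.73), TGFBR2 (2.86), MCM7 (0.964), EREG (2.12), SLC7A11 (2.73) and KLF4 (1.24). Among the other genes with large decreases in MDA-MB-231 it was −9.92 for LGALS12, −2.67 for ABI3BP, −5.38 for ELF3, −2.78 for ITIH4, −3.09 for RNF43, −6.22 for SHOC1, −6.32 for BMP5, −3.02 for DIO2, −3.26 for KYNU, −6.44 for ANPEP, −6.3 for MMP2, −8.64 for COL3A1, −5.07 for MGP, and −16.15 for both BGN and COL1A2. For UCA1, higher in shNRP1#5 in both lines, it was −5.5. COL3A1, MGP, BGN and COL1A2 were at 15.8, 8.06, 32.6 and 111 CPM in MDA-MB-231 shNRP1#3 replicate 3. In replicates 1 and 2 these genes were at 0.801 CPM or less. Without replicate 3, COL3A1, BGN and COL1A2 were not called between the hairpins in MDA-MB-231.

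Among the members of the lists it was −4.65 for L1CAM, −4.59 for SEMA3B, −5.38 for CLDN4, −5.16 for TJP3, −1.58 for LAMA5, −1.33 for COL5A1, −12.09 for LUM, −4.8 for LOXL4, −3.93 for TNFSF10, −1.51 for BST2, −1.45 for JUND, −1.38 for TPM2, −5.23 for FST, −2.42 for CDH2 and −1.04 for TFAP2A. With the other lines' reads subtracted in both lines, 35 of the 41 kept the call, and ANPEP, MMP2, KYNU, BST2, TPM2 and CDH2 did not. COL3A1, MGP, BGN and COL1A2, high in shNRP1#3 replicate 3 alone, were among those that kept the call.

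Markers of other cell lines were found in shNRP1#3 above every shNT sample, at 121 CPM (SUM159PT) and 86.2 CPM (HS578T) in replicate 3 and at 30.6 and 12.4 CPM in replicate 2. With the 17 markers of HS578T alone, the estimate of HS578T reads in replicate 2 was 0%.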

How the results depend on the processing

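With only the 9 shRNA samples, 5741 genes were called between the hairpins (2735 higher and 3006 lower), 2360 for shNRP1#3 against shNT and 7098 for shNRP1#5 against shNT. With only the 2 groups compared these were 5767 (2750 and 3017), 2044 and 6823. The cause was not tested. Requiring a 2-fold difference left 851 (245 and 606). With shNRP1#3 replicates 2 and 3 left out, chosen after seeing the data, there were 547 (174 and 373), 99 for shNRP1#3 against shNT, 3103 differing from the siRNA pair and 416 differing between the lines. For shNRP1#3 against shNT, no filter gave 1538 and DESeq2 1127. The replicate block gave 2942 calls between the hairpins (1252 and 1690) and 806 and 4167 against shNT. Deviations of same-numbered samples of the 2 hairpins correlated at −0.122, −0.201 and 0.0285. Whether same-numbered samples shared a passage or batch was not tested.

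Leaving out 1 sample at a time gave 1205 to 1938 calls (470 to 715 higher, 716 to 1223 lower), 303 to 480 for shNRP1#3 and 2100 to 3189 for shNRP1#5 against shNT, 6060 to 7708 for the siRNA pair, 4383 to 6093 for the difference between the pairs, 929 to 1477 in SUM159PT, 876 to 1721 for the difference between the lines, and 115 to 247 transcripts. The NRP1-204 difference was −16.38 to −11.37 percentage points. The transcript count was 266 without a filter. NRP1 was called with no filter (0.43, adjusted p = 0.0407), 9 samples (0.42, 0.00213), 2 groups (0.42, 0.00415), DESeq2 (0.43, 0.0213), subtraction (0.45, 0.0487) and without shNRP1#5 replicate 1 (0.51, 0.0488), over a range of 0.38 to 0.51, and the log2 ratio of mean TPM was 0.144. The sign of ITGA11 turned with subtraction (0.11, adjusted p = 0.971).

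Of the 116 named genes called, 111 kept their call after subtraction, 101 without shNRP1#3 replicate 3, 91 without shNRP1#5 replicate 2, 59 with shNRP1#3 replicates 2 and 3 left out, and all 116 with other size factors. Precision is limited by 3 passages per group and by depth, and shNRP1#3 replicate 1, at 25851515 counts, is the only sample of its group without raised other-line markers.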
